A study of Mus musculus with 7 samples.

Results

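The alpha-class glutathione transferases of the mouse were followed through the gene counts of TRAMP-C1 cells as 4 genes, Gsta1, Gsta2, Gsta3 and Gsta4, found by symbol among 46603 gene rows. Alpha-class transferases are small cytosolic enzymes, active as dimers, that join glutathione to electrophiles such as epoxides and unsaturated aldehydes, and several of them also reduce lipid hydroperoxides. They are abundant in liver, and in rodents their genes are known as targets of the transcription factor NRF2, the product of Nfe2l2, which binds antioxidant response elements (AREs) in DNA once its inhibitor KEAP1 lets it go. Gsta1 and Gsta2 are near copies of each other that handle hydroperoxides and carcinogen epoxides, Gsta3 is the mouse enzyme known for clearing the aflatoxin epoxide, and Gsta4 is the member specialised for hydroxynonenal, an aldehyde formed when membrane lipids oxidise.

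TRAMP-C1 is a line grown from a prostate tumour of a C57BL/6-TgN(TRAMP)8247Ng mouse, a strain in which a prostate-directed promoter drives a viral oncogene, so every library carries that transgene. In the fusion group, 3 libraries came from cells transduced with a lentivirus that carries the PAX8-NFE2L2 gene fusion, and in the empty vector group 3 libraries came from cells given the matching virus without an insert. Virus was left on for 12 h before fresh medium, and cells were grown for a further 24 h. The labels name no selection of transduced cells, so a larger share of cells with a transcript and more transcript per cell cannot be told apart. A seventh library is labelled WT and names no vector, but its treatment text is the same as that of the others, so whether these cells were mock treated is not told. The study's question was how the fusion changes expression relative to the empty vector. Nothing in the labels says that the libraries of a group are separate cultures, so p-values measure the spread between these libraries, which may be technical.

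Gene counts were 26368182 to 55114667 per fusion library, 40089266 to 59597170 per empty vector library and 52859158 in the WT library. The libraries numbered 3 were sequenced on other lanes than the rest and had the highest shares of reads with several alignments, 44.78% with the fusion and 45.32% with empty vector, against 36.1 to 38.89% in the other 5. Reads at mouse Pax8 marked the fusion libraries, with 6.4, 8.53 and 5.57 CPM (counts scaled to 1000000 per library), against 0.0334, 0.0358 and 0.217 CPM with empty vector and 0.0401 CPM in WT. Nfe2l2 had 145, 141 and 123 CPM with the fusion, against 125, 121 and 111 CPM with empty vector and 120 CPM in WT. The labels do not give the species of the construct, so reads at mouse Pax8 and Nfe2l2 need not count all of its transcripts. Of 15 prostate epithelial markers, 9 passed the filter on low counts, and Pbsn, Hoxb13 and Tmprss2, known from prostate epithelium, stood at or near 0 in all 3 groups. The 15 epithelial markers summed to 128 to 166 CPM with the fusion, 147 to 174 CPM with empty vector and 175 CPM in WT. Of the 9 tested, 2 were called higher with the fusion, Krt18 and Foxa1, and 0 lower, against 1.69% and 0.353% of all genes tested. Foxa1 had 0 reads with empty vector and passed the filter through its fusion libraries alone. With the replicate number as a block, 3 of the epithelial markers were called higher (Krt18, Foxa1 and Cdh1) and 1 lower (Krt19). The block called 7.63% of all genes tested higher and 5.5% lower. The summed level of 15 fibroblast and mesenchymal markers was 15141 to 22096 CPM with the fusion, 16431 to 25052 CPM with empty vector and 26297 CPM in WT. None of these 15 was called by edgeR without the block, and with it 1 was called higher (Cdh2) and 3 lower (Col3a1, Dcn and Lum). The part of these markers in the results below was not tested. Summed hepatocyte markers, from the tissue best known for alpha-class enzymes, were at 0.769 to 2.17 CPM with the fusion. They were at 0.734 to 0.987 CPM with empty vector and 0.922 CPM in WT. Only 1 of these 10 markers, Apoa2, passed the filter, and it was not called.

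In GENCODE release M21 of GRCm38, 3 of the 4 genes lie within 1 cluster on chromosome 9. Gsta4 (ENSMUSG00000032348.5) spans chr9:78182774-78209349 on the plus strand, Gsta1 (ENSMUSG00000074183.3) chr9:78230656-78242684 on the plus strand, and Gsta2 (ENSMUSG00000057933.9) chr9:78331018-78355788 on the minus strand. Gsta3 (ENSMUSG00000025934.14) lies apart at chr1:21240589-21265661 on the plus strand. The stretches just before the starts of Gsta1, Gsta2 and Gsta3 are shown because these are the members that had almost no reads without the fusion. They are bases -250 to -31 counted from the RefSeq start, from RefSeq's promoter table for GRCm38.p6, written 5′ to 3′ on the gene's own strand. In Gsta1 (chr9:78230419-78230638, plus strand) and Gsta2 (chr9:78347176-78347395, minus strand) capitals mark the longest run of bases that both share, 29 bases at -118 to -90 in Gsta1 and at -121 to -93 in Gsta2. The GENCODE span of Gsta2 reaches farther upstream than its RefSeq start, so the Gsta2 stretch lies inside that span. In Gsta3 (chr1:21240335-21240554, plus strand) capitals mark the letters of an ARE core, TGACNNNGC.
Gsta1: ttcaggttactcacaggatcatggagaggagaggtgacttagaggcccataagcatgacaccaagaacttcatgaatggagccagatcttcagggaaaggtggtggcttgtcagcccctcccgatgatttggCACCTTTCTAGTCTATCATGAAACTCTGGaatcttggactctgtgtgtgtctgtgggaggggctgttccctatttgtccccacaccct
Gsta2: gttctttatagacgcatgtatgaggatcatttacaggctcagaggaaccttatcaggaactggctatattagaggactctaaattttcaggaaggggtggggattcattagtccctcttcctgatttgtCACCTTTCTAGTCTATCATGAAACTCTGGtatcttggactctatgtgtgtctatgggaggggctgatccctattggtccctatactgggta
Gsta3: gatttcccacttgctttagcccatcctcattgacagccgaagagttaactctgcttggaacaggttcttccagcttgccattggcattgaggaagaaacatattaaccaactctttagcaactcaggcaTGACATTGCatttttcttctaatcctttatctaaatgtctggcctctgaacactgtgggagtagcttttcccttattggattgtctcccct
Aligned over these 220 bases, the Gsta1 and Gsta2 stretches were identical at 154 of 211 aligned positions, which is 73%. The windows of 250 bases before to 50 after the start were searched on both strands for the ARE core and for TGANTCA, the letters of an AP-1 site, which can overlap an ARE core. Among 32851 such windows in the RefSeq table, 12.4% held the ARE core and 7.81% the AP-1 letters. The ARE core occurred once in the Gsta3 window, as TGACATTGC at -121 to -113, and neither motif occurred in the windows of Gsta1 or Gsta2. Bases farther upstream were not searched, so these windows do not tell whether an ARE lies there. Gsta4 was not looked at in this way.

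The relation between the transcripts bears on every count below, because reads with several alignments were not assigned to a gene. The coding sequences of Gsta1 and Gsta2 were identical at 97.9% of aligned bases, and either shared 75.3 to 76.2% with Gsta3 and 65.8 to 66.2% with Gsta4. Cut into 50-base windows, the length of the reads, 9.5% of the Gsta1 windows and 50.2% of the Gsta2 windows occurred in no other gene's transcripts, against 99.7% for Gsta3 and 100% for Gsta4. Gsta1 shared 46.6% of its windows with Gsta2, 31.3% with Gm10639 and 75.7% with Gm3776, whose coding sequence matched that of Gsta1 at 670 of 672 bases. Counts of Gsta1 and Gsta2 therefore come from a part of each transcript, and levels below are given both per kilobase (kb) of merged exons and per kb of windows unique to the gene.

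**Figure D1:**
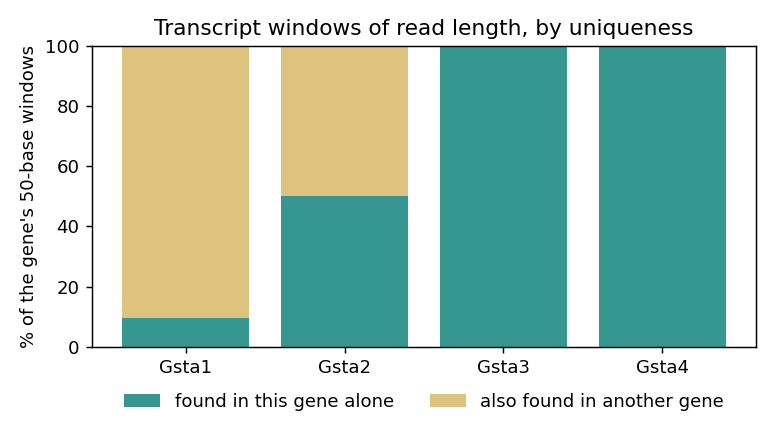
Share of each gene's 50-base transcript windows, in percent, that occur in that gene's transcripts alone (teal) or also in those of another gene (sand), by gene. Unique windows make up 9.5% of Gsta1, 50.2% of Gsta2, 99.7% of Gsta3 and 100% of Gsta4.

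With the fusion, reads of Gsta1 and Gsta2 appeared that were missing from every empty vector library, Gsta4 was several-fold higher, and Gsta3 was the lowest of the 4. Without the fusion, Gsta4 was the only member with more than 5 reads in any library, and Gsta3 was at the edge of detection. The members silent in empty vector cells were thus Gsta1 and Gsta2, and the constitutive member was Gsta4.

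Gsta1 had 217, 225 and 176 reads in fusion libraries 1, 2 and 3, against 0, 0 and 0 reads in the empty vector libraries and 0 in WT. As a level this was 4.13, 4.12 and 6.58 CPM with the fusion, where an empty vector group at 0 allows up to 0.0191 CPM (3 counts over the group). Each of the fusion libraries thus held reads of this hydroperoxide-reducing enzyme, and the groups did not overlap, as was so in this direction for 9.15% of the genes tested. Pooled over libraries, Gsta1 was at least 242-fold higher with the fusion than with empty vector against that floor (edgeR's quasi-likelihood test, adjusted p = 0.00206, higher in 3 of 3 libraries). Over all genes tested, 2.04% were called by this test and 1.69% were called higher. Gsta1, Gsta2 and Gsta3 passed the filter on low counts through their fusion libraries alone, so the number of members called is not read against that share.

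Gsta2 had 1562, 1906 and 1520 reads with the fusion, against 0, 0 and 0 reads with empty vector and 1 read in WT. In CPM these were 29.8, 34.9 and 56.9 with the fusion, a mean of 40.5 ± 14.4 (SD, n = 3), and 0.02 CPM in WT. The third fusion library was the highest for Gsta2 as for Gsta1, and the groups did not overlap. Gsta2 was at least 1954-fold higher with the fusion than with empty vector (edgeR adjusted p = 0.000798, higher in 3 of 3 libraries). No other of the 16731 genes tested had a larger fitted log2 fold change, which for a group at 0 depends on the prior count.

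Gsta3, the aflatoxin epoxide transferase, had 35, 57 and 100 reads with the fusion, against 0, 5 and 1 reads with empty vector and 2 reads in WT. Scaled to CPM it stood at 0.667, 1.04 and 3.74 with the fusion, at 0, 0.0895 and 0.0241 with empty vector and at 0.0401 in WT. The groups did not overlap, but the third fusion library was several times above the other two, a wider spread than for any other member. The log2 fold change of fusion over empty vector was 5.45 (SE 1.02, 95% interval 3.1 to 7.8, edgeR adjusted p = 0.0376, higher in 3 of 3 libraries), and the ratio of pooled counts was 37.6 (exact 95% interval 17 to 104). That call was lost without fusion library 2 (log2 fold change 5.73, adjusted p = 0.0711) and without empty vector library 1 (4.84, 0.069), 2 (7.13, 0.0713) or 3 (5.27, 0.0872). With only the libraries numbered 1 and 2, which share lanes, it was 4.24 (edgeR adjusted p = 0.123). The third fusion library was also the shallowest and was run on a lane of its own, and the part of these in its Gsta3 level was not tested. An antisense transcript, Gm28836, overlaps Gsta3 and had 0 reads in every group.

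Gsta4, the hydroxynonenal transferase, had 6207, 8305 and 4383 reads with the fusion, against 1040, 978 and 545 reads with empty vector and 613 reads in WT. This came to 118, 152 and 164 CPM with the fusion, 17.4, 17.5 and 13.1 CPM with empty vector and 12.3 CPM in WT. Every fusion library was well above every empty vector library, and WT lay just under the lowest empty vector library. The mean was 145 ± 23.7 CPM with the fusion and 16 ± 2.5 CPM with empty vector (SD, n = 3 each). The log2 fold change was 3.18 (SE 0.234, 95% interval 2.64 to 3.71, edgeR adjusted p = 0.000798, higher in 3 of 3 libraries). Of the 282 genes called higher, 120 had a larger log2 fold change than Gsta4, yet by p-value it ranked 13 of 16731 genes, beside Gsta2 at 14, Gsta1 at 30 and Gsta3 at 293.

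**Figure D2:**
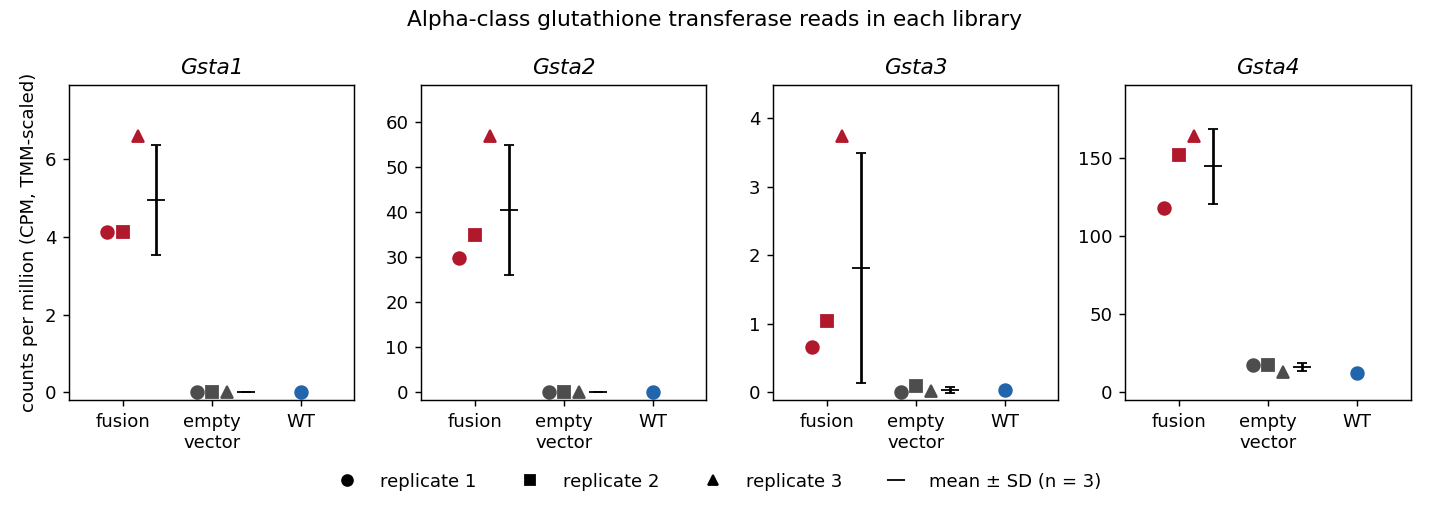
Level of each member in CPM (TMM-scaled, linear axis, 1 panel per gene with its own scale) by group, with a symbol per library and a bar for mean ± SD of the 3 fusion or 3 empty vector libraries. Gsta1 and Gsta2 are at or near 0 outside the fusion group, Gsta3 lies under 0.1 CPM there, and Gsta4 has 13.1 to 17.5 CPM with empty vector and 118 to 164 CPM with the fusion.

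Libraries of the same number deviated from their group means together, so ratios within a number are given too. Gsta4 was 6.81, 8.68 and 12.5 times as high in fusion libraries 1, 2 and 3 as in the empty vector library of the same number. Gsta2 was at least 594, 650 and 788 times as high, and Gsta1 at least 82.5, 76.7 and 91.2 times, against 3 counts in the empty vector library. For Gsta3 the ratio was at least 13.3 in number 1, 11.7 in number 2 and 155 in number 3. The direction was the same in each of the 3 pairs for each of the 4 genes, and the ratio of Gsta3 differed most between pairs. With the replicate number as a block, no member's call changed, while the genes called higher over the whole table came to 7.63% and those called lower to 5.5%.

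Levels between members can be compared only per length. Per kb of merged exons, the fusion means were 114 ± 18.7 CPM for Gsta4, 34.4 ± 12.2 for Gsta2, 5.17 ± 1.48 for Gsta1 and 0.418 ± 0.386 for Gsta3 (SD, n = 3 each). The order Gsta4, Gsta2, Gsta1, Gsta3 held in each of the 3 fusion libraries, and no neighbours in it overlapped. Per kb of unique windows the order was unchanged, but Gsta1 stood at 48.1, 47.9 and 76.6 CPM and Gsta2 at 50.6, 59.4 and 96.7 CPM in fusion libraries 1, 2 and 3, so that the ranges of these neighbours overlapped. Gsta4 had 97.2, 125 and 135 CPM on that scale, its lowest library just above the highest of Gsta2. On the unique windows of the first coding transcript alone, a length chosen after seeing the data, Gsta2 had 101, 119 and 193 CPM per kb and Gsta4 127, 164 and 177 in the fusion libraries, so that Gsta2 was above Gsta4 in the third and the order of the 2 rests on the length used. With empty vector, Gsta4 had 12.6 ± 1.98 CPM per kb of merged exons (SD, n = 3) and Gsta3 0.00872 ± 0.0107, and WT had 9.7 and 0.00923.

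Set against 16666 tested genes with a length, Gsta4 was at the 97.6, 98.2 and 98.2 percentile of CPM per kb in the fusion libraries, against 74.5, 74.5 and 69.5 with empty vector and 66.6 in WT. Gsta2 reached the 85.5, 88.4 and 93.2 percentile with the fusion. Gsta1 lay at 49.9, 48.6 and 59.9 and Gsta3 at 8.98, 11.8 and 26.2, on merged exon length. A gene that was silent with empty vector thus stood among the upper levels with the fusion, whereas Gsta3 remained in the lower part of the distribution.

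The make-up of the class follows from these levels. The 4 genes together had 153, 192 and 231 CPM with the fusion, against 17.4, 17.6 and 13.1 CPM with empty vector and 12.3 CPM in WT. Gsta4 made up 75.8, 77.8 and 69.8% of the summed level per kb of merged exons with the fusion, against 99.9 to 100% with empty vector and 99.7% in WT. Gsta2 held 20.5, 19.2 and 26% and Gsta1 3.51, 2.79 and 3.71% with the fusion. Per unique window, the Gsta4 share was 49.6, 53.8 and 43.6% in the fusion libraries, that of Gsta2 25.8, 25.5 and 31.3% and that of Gsta1 24.5, 20.6 and 24.8%. The mean Gsta1 share was thus 3.34% on one length and 23.3% on the other, while Gsta4 had the largest share on both of these lengths in every fusion library. Of raw counts, Gsta4 had 77.4% (Wilson 95% interval 76.5 to 78.3), 79.1% (78.4 to 79.9) and 70.9% (69.8 to 72.1) in fusion libraries 1, 2 and 3, intervals that cover counting error only.

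**Figure D3:**
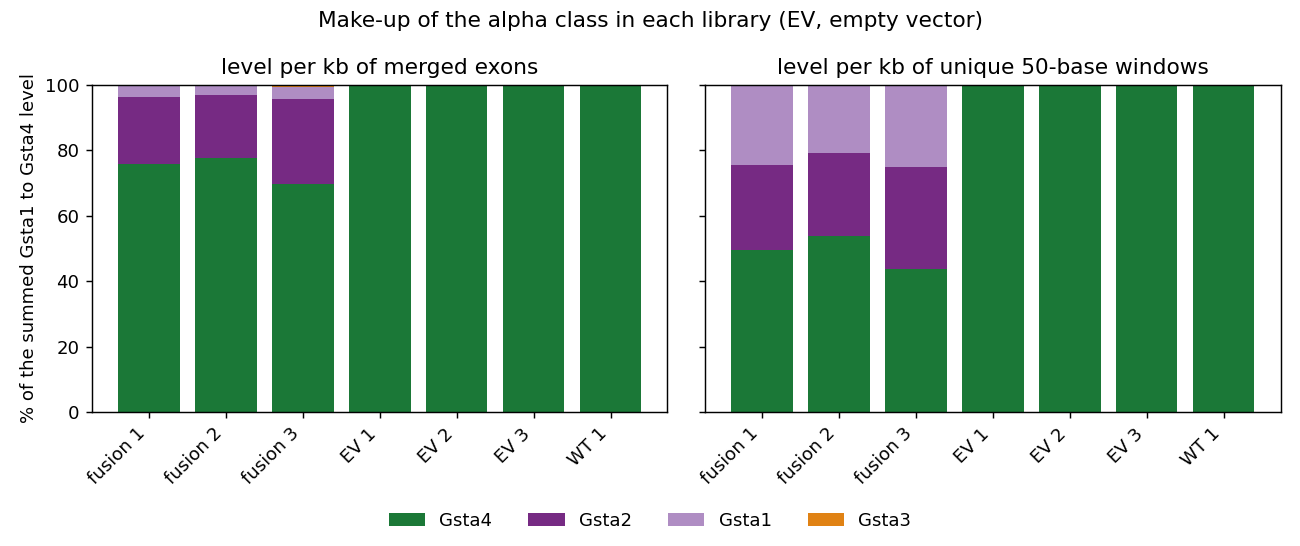
Share of each member in the summed Gsta1 to Gsta4 level of each library, in percent, with level taken per kb of merged exons (left) or per kb of 50-base windows unique to the gene (right). Gsta4 (green) fills the empty vector (EV) and WT bars almost wholly, and in the fusion bars it holds 69.8 to 77.8% on the left and 43.6 to 53.8% on the right.

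Within the fusion group Gsta1 and Gsta2 kept a similar proportion in each library, and Gsta3 did not keep one to Gsta4. The count of Gsta1 was 0.139, 0.118 and 0.116 times that of Gsta2 in fusion libraries 1, 2 and 3. The count of Gsta2 was 0.252, 0.23 and 0.347 times that of Gsta4. The Gsta3 count was 0.00564, 0.00686 and 0.0228 times that of Gsta4, so the third library had several times more Gsta3 per Gsta4 read than the other two.

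Set against the single WT library, the empty vector showed no called difference in any member. Gsta4 averaged 16 ± 2.5 CPM with empty vector (SD, n = 3), against 12.3 CPM in WT, a log2 fold change of 0.38 with a 95% interval of -0.34 to 1.1 (edgeR adjusted p = 1, higher in 3 of 3 libraries). A level above WT in every empty vector library was found for 21.6% of the genes tested. No gene of the table was called in this comparison by edgeR (0%), 746 (4.46%) had an unadjusted p under 0.05, and DESeq2 called 71. Gsta3 had 6 reads over the empty vector libraries, against 2 in WT, a pooled ratio of 0.952 (exact 95% interval 0.17 to 9.64). For Gsta1 and Gsta2 both groups lay at or under the floor, so no fold is given.

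Fusion over WT uses the same fusion libraries and is given side by side. Gsta4 was higher by a log2 fold change of 3.56 (SE 0.386, edgeR adjusted p = 0.0212, higher in 3 of 3 libraries), in a comparison that called 0.436% of genes and 0.341% higher, and in which 23.8% lay above WT in every fusion library. Gsta1 was at least 76.8-fold higher (adjusted p = 0.0375), and Gsta2 had a pooled ratio of 1860 against its 1 WT read (exact 95% interval 334 to 73469, edgeR adjusted p = 0.0289). Gsta3 had a log2 fold change of 5.39 that did not pass (edgeR adjusted p = 0.337, 95% interval 1.54 to 9.23). Calls of Gsta1, Gsta2 and Gsta4 in this comparison did not survive without fusion library 2 (adjusted p = 0.104, 0.0758 and 0.0639), nor did that of Gsta1 without fusion library 1 (adjusted p = 0.096).

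Reads of the close copies were also added into 1 feature, since the split between them rests on few unique bases. Gm10639, which shares windows with both Gsta1 and Gsta2, had 2, 3 and 3 reads with the fusion, against 0 reads in each empty vector library and in WT, and did not pass the filter. Gsta1, Gsta2 and Gm10639 together were called higher with the fusion (edgeR adjusted p = 0.000757). The part of Gm3776 in these reads was not tested, as it was not analysed here under its annotated ID.

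Around the chromosome 9 cluster, 12 other tested genes lie within 500 kb of a member. Of these, 2 were called higher with the fusion and none lower, against 1.69% and 0.353% of all genes tested. Their median log2 fold change was 0.28, against 0.0092 over all genes tested. Ooep, an oocyte-expressed gene 20321 bases from Gsta2, averaged 0.988 ± 0.164 CPM with the fusion and 0.0479 ± 0.0415 CPM with empty vector (SD, n = 3 each), against 0.0802 CPM in WT, a log2 fold change of 4.37 (edgeR adjusted p = 0.0209). Ooep passed the filter on low counts through its fusion libraries alone, so it could enter the count only as higher. Gclc, the catalytic subunit of the enzyme that starts glutathione synthesis, lies 388289 bases from Gsta4 and is described with its pathway. The genes nearest to Gsta4, C920006O11Rik at 3895 bases and Ick at 10667 bases, had log2 fold changes of 0.49 and 0.32 and did not pass (edgeR adjusted p = 0.723 and 0.824). Around Gsta3 on chromosome 1, none of 7 tested neighbours was called by edgeR with or without the block, and their log2 fold changes lay between -0.76 and 0.37. With the block, 4 of the 12 on chromosome 9 were called, Elovl5 and Cd109 in addition, with Cd109 lower. The block called 13.1% of all genes tested.

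**Figure D4:**
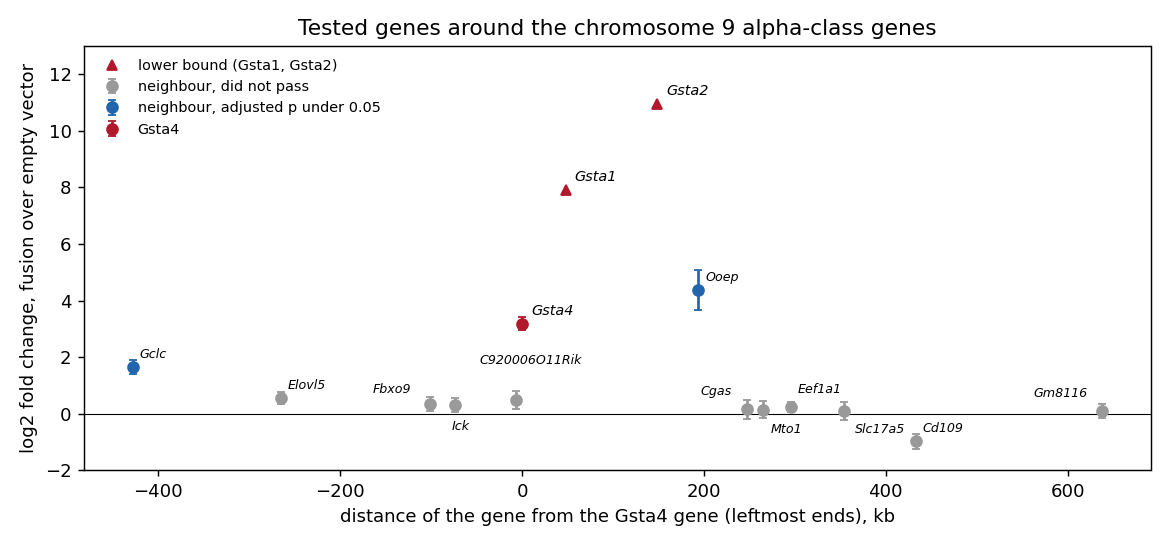
Log2 fold change, fusion over empty vector (edgeR, 3 libraries each, bars ± SE), of tested genes near the chromosome 9 members, by distance in kb of the gene's leftmost end from that of Gsta4. Gsta1 and Gsta2 are drawn at the log2 of their lower bounds; Ooep at 4.37 and Gclc at 1.66 are the called neighbours, and the other 10 lie between -0.98 and 0.54.

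Outside the alpha class, 26 other glutathione transferases and related membrane enzymes were listed. Of 21 that passed the filter, 3 were called higher and 0 lower, against 1.69% and 0.353% of all genes tested. Their median log2 fold change was 0.35. Hpgds, a sigma-class transferase that makes prostaglandin D, had 3.7, 3.02 and 7.03 CPM with the fusion, against 0.0836, 0 and 0.0241 CPM with empty vector and 0.0802 CPM in WT. Its log2 fold change was 6.83 (edgeR adjusted p = 0.00476), and like the silent alpha members it was nearly unread without the fusion. Hpgds too passed the filter through its fusion libraries alone, so it could enter the count only as higher. Gstm1, of the mu class, averaged 153 ± 29 CPM with the fusion and 41.2 ± 10.9 CPM with empty vector (SD, n = 3 each; log2 fold change 1.89, edgeR adjusted p = 0.0118). Gstp1, of the pi class, averaged 90.1 ± 14.1 CPM with the fusion and 44 ± 4.92 CPM with empty vector (SD, n = 3 each; log2 fold change 1.04, edgeR adjusted p = 0.0446). With the replicate block 8 were called higher and 2 lower, Gstcd and Alox5ap, against 7.63% and 5.5% of all genes tested. Without fusion library 2 or without empty vector library 2 the count was 1.

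The enzymes that supply glutathione and the pumps and peptidases that handle its conjugates were listed as 28 genes. Of 25 tested, 6 rose and 0 fell, against 1.69% and 0.353% of all genes tested, with a median log2 fold change of 0.36. With the block 10 rose and 1, Chac1, fell, against 7.63% and 5.5% of all genes. Gclm and Gclc, the subunits of glutamate-cysteine ligase, averaged 458 ± 27.2 and 184 ± 19.8 CPM with the fusion, against 107 ± 38 and 58.3 ± 17.8 CPM with empty vector (SD, n = 3 each). On the log2 scale they were higher by 2.1 and 1.66 (edgeR adjusted p = 0.00811 and 0.0162). The conjugate exporter Abcc3 was higher by 2.91 on that scale (edgeR adjusted p = 0.00607) and Abcc4 by 2.83 (0.011), with Abcc4 at 238 ± 75 CPM with the fusion and 33.4 ± 13.6 CPM with empty vector (SD, n = 3 each). Ggt5, a peptidase that takes the glutamyl group off glutathione conjugates, was higher by 4.48 (edgeR adjusted p = 0.00939), at 3.89 ± 1.55 CPM with the fusion and 0.179 ± 0.12 CPM with empty vector (SD, n = 3 each). With 26 reads over the empty vector libraries, Ggt5 passed the filter on low counts only through its fusion libraries. The sixth gene that rose was Slc7a11, the cystine importer (1.39, edgeR adjusted p = 0.0372). With the libraries numbered 1 and 2 only, the count was 3.

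Lipid aldehydes are also cleared by dehydrogenases and reductases, which were listed with the peroxidase Gpx4 and the monooxygenases Cyp4f13 and Cyp4f16 as 26 genes, all tested. Of these 4 rose and 0 fell, against 1.69% and 0.353% of all genes tested, with a median log2 fold change of 0.36. With the block 8 rose, against 7.63% of all genes. Aldh3a1, an aldehyde dehydrogenase, had 161, 139 and 148 CPM with the fusion, against 11, 3.78 and 2.41 CPM with empty vector and 7.17 CPM in WT (log2 fold change 4.7, edgeR adjusted p = 0.00554). Of the carbonyl reductases, Cbr3 was higher by 3.62 on the log2 scale (edgeR adjusted p = 0.00217) and Cbr1 by 2.29 (0.0042). Akr1c14, an aldo-keto reductase, had one of 2.01 (edgeR adjusted p = 0.0348), at 82.4 ± 40.6 CPM with the fusion and 20.4 ± 2.67 CPM with empty vector (SD, n = 3 each), against 59.7 CPM in WT. The Akr1c14 level in WT lay within the fusion range, unlike that of Gsta4.

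**Figure D5:**
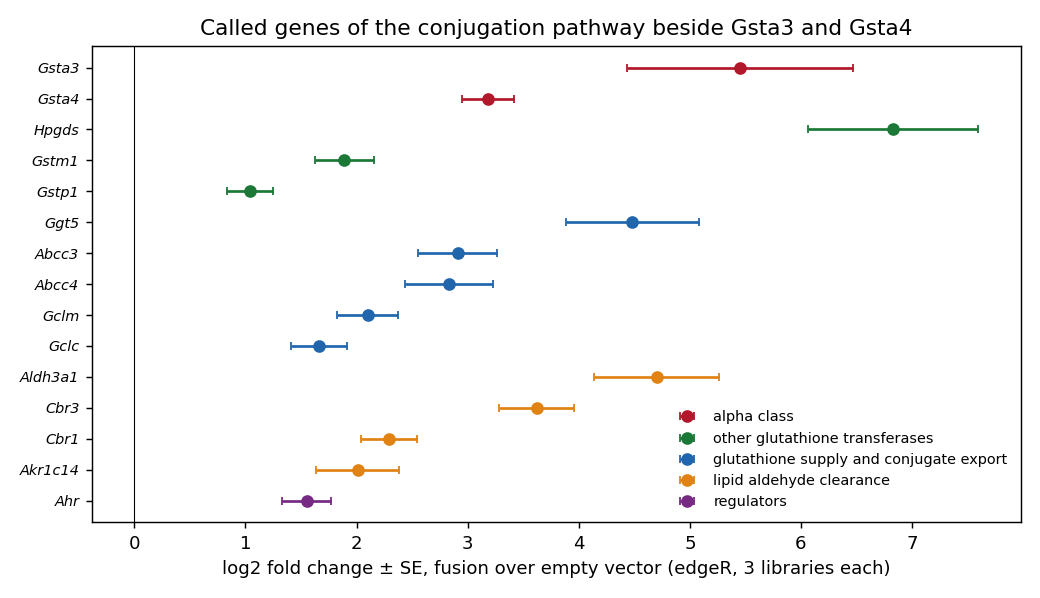
Log2 fold change ± SE, fusion over empty vector (edgeR, 3 libraries each), of Gsta3 and Gsta4 and of up to 5 called genes from each pathway list, coloured by list. Among the transferases drawn, which leave out Gsta1 and Gsta2, Gsta4 at 3.18 lies below Hpgds at 6.83 and Gsta3 at 5.45 and above Gstm1 and Gstp1, and every value shown is above 0.

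Transcription factors known to act on alpha-class genes, and the NRF2 inhibitor Keap1, were listed as 22 genes. Of 16 tested, 1 rose and 0 fell, against 1.69% and 0.353% of all genes tested, with a median log2 fold change of 0.062. That gene was Ahr, the dioxin receptor, with 51, 76.5 and 56.1 CPM with the fusion, against 20.5, 22.9 and 19.3 CPM with empty vector and 9.06 CPM in WT (log2 fold change 1.55, edgeR adjusted p = 0.0118). Reads at mouse Nfe2l2, which need not include those of the construct, had a log2 fold change of 0.19 (edgeR adjusted p = 0.885). Keap1, the inhibitor of NRF2, and Bach1, a repressor at AREs, had log2 fold changes of 0.71 and 0.82 that did not pass (edgeR adjusted p = 0.12 and 0.155) and did with the block (0.00335 and 0.00796). Keap1 had 94.2, 90.2 and 80.3 CPM with the fusion, against 58.7, 53.5 and 49.3 CPM with empty vector and 87 CPM in WT, so that WT lay within its fusion range. With the block 4 rose and 1, the glucocorticoid receptor gene Nr3c1, fell, against 7.63% and 5.5% of all genes. Without the block and without empty vector library 2 the count of 1 became 0.

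The genes whose profile was most like that of each member were ranked by Pearson's r of log2(CPM + 0.1) over the 7 libraries, which share the split by group and depth, so r is a description. Gsta1 and Gsta2 had r = 0.9996 with each other. Il1f9, an interleukin family cytokine gene, and Cpn1, a carboxypeptidase subunit gene, were among the 5 closest to both, as was Mro (r = 0.9993 to 0.9996). The fifth for Gsta1 was Cds1 (r = 0.9987) and for Gsta2 Gm20658 (r = 0.9991). Il1f9 and Cpn1 had 0 reads in every empty vector library and in WT, with 4.04, 5.11 and 8.04 CPM of Il1f9 and 11.4, 16.4 and 25.8 CPM of Cpn1 in the fusion libraries. The third fusion library was the highest for both, as it was for Gsta1 and Gsta2.

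Gsta4 was less like Gsta1 and Gsta2 than these were like each other, with r = 0.9923 to Gsta1 and 0.9915 to Gsta2. Gsta3 was the member least like the others, with r = 0.9496 to Gsta1, 0.947 to Gsta2 and 0.9437 to Gsta4. The genes closest to Gsta4 were Oxsm (r = 0.9965), D630023F18Rik (0.9962), Krt83 (0.9956), Gm42141 (0.9945) and Creg1 (0.994). Creg1 had 175, 210 and 238 CPM with the fusion, against 44.5, 57.6 and 38.4 CPM with empty vector and 33.8 CPM in WT, the same order of libraries within the fusion group as Gsta4. The genes closest to Gsta3 were C130026L21Rik (r = 0.9871), Gm16537 (0.9845), Rgs10 (0.9824), Bsnd (0.9811) and Ssu2 (0.9809). Rgs10, a regulator of G-protein signalling, had 16.6, 26.6 and 44.6 CPM with the fusion, against 7.49, 7.09 and 6.81 CPM with empty vector and 8.06 CPM in WT. Like Gsta3 it was highest in the third fusion library, but unlike Gsta3 it was well detected in the other groups.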

How the data were processed

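RNA-seq of 7 TRAMP-C1 libraries was used. Per the labels' protocols, polyadenylated RNA was sequenced as single-end reads of 50 bases, with STAR, HTSeq and GRCm38 named in the submitters' processing notes. Their versions, the annotation release and whether strand was used in counting were not given there. The authors deposited 12 lane tables of raw read counts for each gene. Lanes of a library were summed (chi-square per degree of freedom between lanes 0.981 to 1.01). Rows without a gene were left out: 5.726 to 6.927% of a library's reads fell outside genes, 1.222 to 1.479% were ambiguous and 36.1 to 45.32% had several alignments. No library had more than 2 counts over the 92 spike-in rows. As the use of strand is unknown, counts are uncertain for 9 of 36 named genes that overlap a gene on the other strand (Gsta3, Hpgds, Ggt5, Abcc4, Gclm, Keap1, Gm20658, Gm16537 and Oxsm).

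The whole table was fitted with edgeR 4.0.16 in R 4.3.3 (TMM, factors 0.9815 to 1.027; filterByExpr, minimum count 10; robust quasi-likelihood F test, two-sided; biological coefficient of variation 0.301; Benjamini-Hochberg adjustment at 0.05 over 16731 genes), with fusion and empty vector in 6 libraries. Comparisons with WT used 1 fit of 7 libraries, in which the spread of the other groups stands in for that of WT. CPM use TMM factors over 7 libraries (0.944 to 1.037). A group at 0 was given 3 pooled counts as a floor, and pooled ratios exact 95% binomial intervals. Floors and intervals cover counting error only, since reads carry no molecular identifiers. On simulated counts the fit was checked for known changes in genes read in both groups, with less spread between libraries than here. That check does not cover a group at 0. Same-numbered libraries deviated together over genes (r = 0.535, 0.487 and 0.459, against -0.426 to -0.0495 between numbers), so the numbers were taken to pair the samples; the pairing comes from this check alone. DESeq2 1.42.0, a replicate block, a lane term, other filters and left-out libraries were alternatives.

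Positions, exon lengths and 50-base windows come from GENCODE M21, and the windows were compared with transcripts alone; promoter stretches come from RefSeq. A genome sequence and protein sequences were not used here, so coding sequences stand in for the protein comparison that was planned. Named genes were the 4 members and their close copies, up to 5 called genes of largest change per pathway list with Nfe2l2, Keap1 and Bach1, called neighbours within 500 kb, and the 5 most alike genes of each member. Neighbours that were not called, Slc7a11, the cell type markers and the genes called lower with the block were named after their values were seen. The members, lists and rules were chosen with earlier results of these data known.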

Additional observations from a re-analysis of the deposited data

How the results depend on the processing

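Gsta1, Gsta2 and Gsta4 kept their direction and passed the threshold in fusion over empty vector under each of the 12 settings run on the gene alone, with log2 fold changes of 10.8 to 11, 13.7 to 14.1 and 3.05 to 3.3 when 1 library was left out. With 0 reads in every empty vector library, the values of Gsta1 and Gsta2 depend on the prior count, so their narrow ranges do not measure stability. The same holds below for the summed copies and for Gsta1 over WT. Gsta3 passed in 7 of 12 settings, at 4.4 to 7.13 with 1 library left out and at 4.24 (adjusted p = 0.123) with the libraries numbered 1 and 2 only. The replicate block changed no member's call (Gsta3 5.24, edgeR adjusted p = 0.0106). Of all genes, 341 were called in fusion over empty vector, 530 with no filter, 922 with DESeq2, 2196 with the replicate block (1276 higher, 920 lower), 716 with a lane term (512 higher, 204 lower) and 139 to 373 with 1 library left out, among them 204 without fusion library 1, 154 without fusion library 2 and 139 without empty vector library 2. Among other glutathione transferases the 3 calls became 6 with no filter, 7 with DESeq2, 10 with the replicate block, 5 with the lane term and 1 to 4 with 1 library left out. For glutathione supply and export the 6 became 11 with the replicate block, 10 with the lane term, 3 with numbers 1 and 2 only and 4 to 6 with 1 library left out. For aldehyde clearance the 4 became 7 with DESeq2, 8 with the replicate block and 3 to 6 with 1 library left out, and for the regulators the 1 became 3 with DESeq2, 5 with the replicate block, 3 with the lane term and 0 to 1 with 1 library left out. Empty vector over WT gave 0 calls, 15 with no filter, 71 with DESeq2 and 0 to 5 with 1 library left out, the 5 without fusion library 3. Fusion over WT gave 73 calls, 245 with no filter, 499 with DESeq2 and 1 to 118 with 1 library left out, 16 without fusion library 1, 1 without fusion library 2, 25 without empty vector library 2 and 118 without empty vector library 3. There Gsta3 passed with DESeq2 alone (5.5, adjusted p = 0.0109) and lay at 4.34 to 5.79 with 1 library left out, and Gsta1, Gsta2 and Gsta4 lay at 10.8 to 11, 10.5 to 11 and 3.46 to 3.67. In empty vector over WT, Gsta4 lay at 0.34 to 0.51 and Gsta3 at -1.73 to 0.58 with 1 library left out. The mean Gsta1 share in the fusion group was 3.34% per kb of merged exons, 23.3% per unique window, 16.4% per unique window of the first coding transcript and 2.57% of counts, that of Gsta2 21.9, 27.6 and 38.4% on the 3 lengths, that of Gsta4 74.5, 49 and 44.8%, and that of Gsta3 0.248% per kb of merged exons and 0.866% of counts. The first-transcript and no-length shares and the block on summed copies (log2 fold change 14, edgeR adjusted p = 0.000277) were chosen after seeing the data. The cause of these changes was not tested. With a pseudocount of 1, 3, 3 and 2 of the 5 genes most like Gsta2, Gsta3 and Gsta4 were taken again. Gsta3 had 0 to 5 reads per library outside the fusion group, and 9.5% of the Gsta1 windows were unique to it. The part of depth or of unique bases in the changes between settings was not tested.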
